A study of Arabidopsis thaliana with 36 samples.

Results

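Whole hypocotyls of wild-type Col-0 Arabidopsis thaliana were set against xylem and cork separated from Col-0, to describe which transcripts of the whole organ lay outside the range spanned by both tissues. The comparison rests on 9 of the 36 arrays of the series, 3 each of hypocotyl, xylem and cork, chosen by the sample titles. The series is about dormancy and its interplay with secondary growth, in which stems thicken through a dividing layer, the vascular cambium. Its other groups are hypocotyls of axr1 (auxin-resistant), max4 (strigolactone-deficient), abi1 (insensitive to abscisic acid), aba1 (abscisic acid-deficient) and wild-type Ler, and xylem and cork of MYB61 and MYB50 knockouts, with 3 arrays each. All plants were grown on compost at 22 °C in 24 h of light after 2 days at 4 °C, and each array took RNA pooled from 200 to 400 plants. Plant age and what the cork samples held besides cork are not given in the labels, and nothing says that the 3 pools of a group were grown apart, so p-values measure the spread between these samples only.

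The hypocotyl is the stem below the seed leaves. In older Arabidopsis plants it thickens much as wood does: the cambium gives off xylem to the inside and phloem to the outside, and another dividing layer makes the cork that replaces the epidermis. A whole hypocotyl therefore holds xylem, cork and the living tissues between them. Each array was scaled to the same trimmed mean, so a level is relative to all other RNA of its sample, and fewer cells of a type and less RNA per cell cannot be told apart.

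Levels below are scaled probe-set intensities, in which 16 is near the background. Differences are on the log2 scale of the intensity plus 16, as hypocotyl minus tissue. A gene was called above or below both tissues when the differences from xylem and from cork had the same sign and both had an adjusted p under 0.05 in limma. Its distance is the smaller of the 2 differences. Folds are ratios of mean intensities against the nearer tissue.

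Hypocotyl arrays correlated with each other at 0.984 to 0.99, with cork arrays at 0.916 to 0.92 and with xylem arrays at 0.871 to 0.879. Array medians ran from 35.9 to 41.5. The 3′ to 5′ ratio of actin was 1.44 to 1.72 in hypocotyl, 1.07 to 1.35 in xylem and 1.27 to 1.73 in cork, and the scanner background was 64.56 to 89.8, 85.37 to 123.77 and 69.38 to 75.52. The 25S ribosomal RNA control read 1982.2 to 2688.5 in hypocotyl, 769.8 to 1927.6 in xylem and 2658.7 to 3027.1 in cork. The part of these differences in the results was not tested, apart from the scanner background as a covariate.

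Tissue markers were checked first. The phloem peptide gene CLE41 read 607.7, 615.7 and 619.1 in hypocotyl, against 33.9, 21.8 and 28.5 in xylem and 367.6, 349.4 and 343.6 in cork. The 3 hypocotyl arrays were the highest of the 9. FACT, an acyltransferase gene for the caffeate esters of suberin-associated waxes, averaged 68.2 ± 7.43 in hypocotyl, 18.2 ± 3.93 in xylem and 114 ± 6.06 in cork (SD, n = 3 each), so hypocotyl lay between the tissues. The class III HD-ZIP gene PHV, which acts in vascular patterning, averaged 228 ± 4.07 in hypocotyl, 677 ± 40.2 in xylem and 109 ± 6.69 in cork. The order of the levels of these 3 genes did not go against the labels. PHV was planned as a cambium marker together with MOL1, which ran the other way. MOL1 averaged 128 ± 7.78 in hypocotyl, 68.0 ± 5.85 in xylem and 133 ± 5.94 in cork. The xylan genes IRX15 and IRX15-L, planned as xylem markers, averaged higher in hypocotyl (78.5 and 84.6) than in xylem (39.4 and 55.1). Their arrays overlapped and are described below. XCP1, CESA7, WOX4 and most other textbook markers had no named probe set here.

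Over the 15924 probe sets tested, 8841 differed between hypocotyl and xylem (55.5%) and 7001 between hypocotyl and cork (44.0%). Against the mean of both tissues 8153 differed (51.2%), 3977 higher and 4176 lower in hypocotyl. Outside the range were 4495 probe sets (28.2%), of which 2310 were above both tissues (14.5%) and 2185 below both (13.7%). Most lay close to the range: the median distance was 0.489 above and 0.461 below, and 209 probe sets were above (1.31%) and 185 below (1.16%) by at least 1, which is 2-fold for a bright gene. In 2165 of those above (13.6% of all tested) and 1998 of those below (12.5%), all 3 hypocotyl arrays lay outside all 6 tissue arrays. At the threshold, CYN, called above at a distance of 0.295, had a larger adjusted p of 0.0499, and AT4G21450, not called at -0.208, had 0.05.

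**Figure D1:**
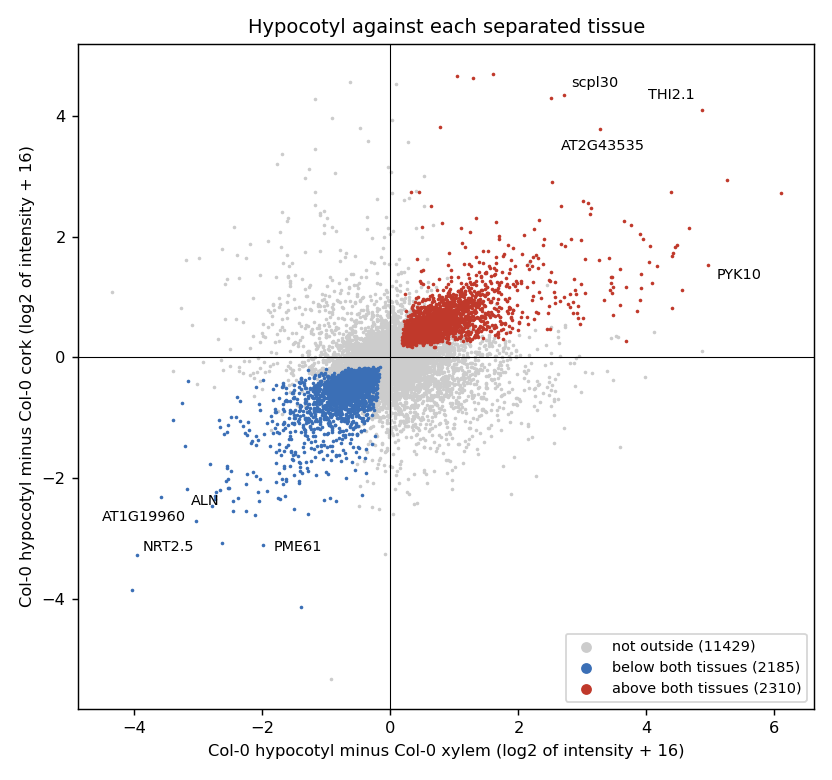
Each point is 1 of 15924 probe sets, placed by its hypocotyl minus xylem difference (x axis) and its hypocotyl minus cork difference (y axis), both on the log2 scale of intensity plus 16. The 2310 probe sets called above both tissues fill the upper right, with THI2.1 far out, and the 2185 called below both fill the lower left.

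A thionin gene and a defensin-like gene were the farthest above both tissues among named genes whose hypocotyl arrays did not overlap the tissues. THI2.1, the gene of a thionin (a small antimicrobial peptide), read 1196.5, 1112 and 1219.6 in hypocotyl, against 20.2, 40 and 17.7 in xylem and 52.3, 50.7 and 58.2 in cork. All 3 hypocotyl arrays were far above the others, and hypocotyl was 21.9-fold above cork, the nearer tissue (distance 4.096, SE 0.24, adjusted p = 1.25e-14). AT2G43535, of the scorpion toxin-like (knottin) family of defensin-like proteins, read 820.4, 727.5 and 598.5 in hypocotyl, against 59.2, 61 and 55.9 in xylem and 59.1, 27.6 and 28.3 in cork. All hypocotyl arrays were above all 6 tissue arrays, while xylem and cork overlapped (distance 3.28, adjusted p = 1.37e-13). The gene next to it on chromosome 2, AT2G43530, of the same family, averaged 1023 ± 76.8 in hypocotyl, 168 ± 36.5 in xylem and 125 ± 30.7 in cork (distance 2.52).

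These genes belong to a list of thionins and defensin-like genes, written after values were seen. Of its 7 tested members 5 were above both tissues (71.4%, beside 14.5% of all probe sets) and 0 below (beside 13.7%), with a median difference of 1.19 from the mean of the tissues, beside -0.0102 over all probe sets. The defensin gene PDF1.4 averaged 69.2 ± 7.95 in hypocotyl, 28.8 ± 10.5 in xylem and 19.6 ± 3.04 in cork, and AT2G43550, 1 of the neighbours on chromosome 2, 86.3 ± 2.40, 11.6 ± 2.22 and 57.1 ± 5.36. LCR69, at 39.03 ± 3.86, 8.67 ± 8.47 and 23.8 ± 1.504, and PDF2.1, near the background in all 3 groups, were not called.

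Several of the farthest genes encode proteases or their relatives. The serine carboxypeptidase-like gene scpl30 read 863.4, 872.2 and 939.8 in hypocotyl, against 100.3, 143 and 128.3 in xylem and 30.2, 27 and 28.2 in cork. All hypocotyl arrays were above all others, 7.20-fold over xylem (distance 2.71, SE 0.16, adjusted p = 8.4e-15). Its relative scpl31 averaged 918 ± 117 in hypocotyl, 379 ± 128 in xylem and 22.0 ± 4.25 in cork (distance 1.29). SBT4.12, a subtilase, read 110.9, 113.6 and 94.3 in hypocotyl, against 6.1, 10.4 and 5 in xylem and 20.3, 9.6 and 16.7 in cork, both tissues averaging under 16 (distance 1.97, adjusted p = 2.13e-09). Both tissues were near the background for AT1G32970 too, another subtilase gene, at 79.2 ± 16.7 in hypocotyl (distance 1.86). Of 26 tested carboxypeptidase-like and subtilase genes, 6 were above both tissues (23.1%) and 0 below, beside 14.5% and 13.7% of all probe sets, with a median difference of 0.25. The neighbours AT5G19120 and AT5G19110, of the aspartyl protease family, were above both at distances of 2.13 and 1.69.

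The other farthest genes above were AT1G49500, AT2G28790, AT4G15660, AT2G15960 and AT3G11930. AT2G28790, of the thaumatin-like (osmotin-like) family, averaged 140 ± 6.07 in hypocotyl, 21.0 ± 4.50 in xylem and 22.1 ± 2.82 in cork, a 6.33-fold difference (distance 2.03, adjusted p = 1.45e-14). AT3G11930, of the universal stress protein family, read 579.7, 582.2 and 511.5 in hypocotyl, against 6.3, 8 and 16.3 in xylem and 129.3, 151.6 and 146.7 in cork. Its hypocotyl arrays were the highest and xylem was near the background (distance 1.86). AT1G49500, whose function is not annotated here, averaged 107 ± 20.8 in hypocotyl and under 16 in both tissues (distance 2.51), and AT2G15960, likewise unannotated, 1448 ± 215 in hypocotyl, 216 ± 43.6 in xylem and 387 ± 100.0 in cork (distance 1.88).

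**Figure D2:**
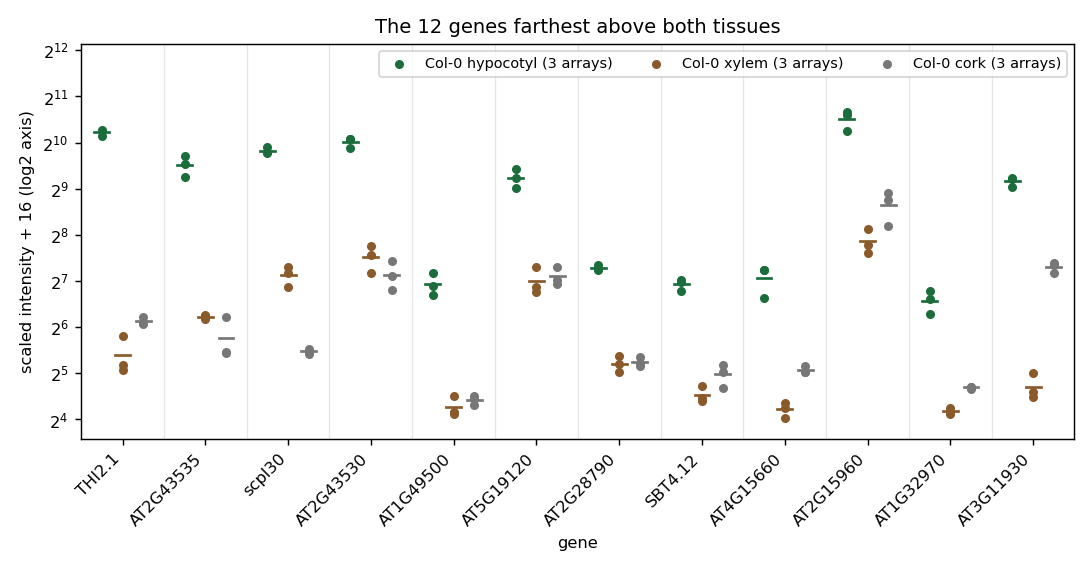
Scaled intensity plus 16 (log2 axis) of the 12 genes farthest above both tissues, with 1 point per array and a bar at the mean of 3 arrays, for Col-0 hypocotyl, xylem and cork from left to right within each gene. In each of the 12 genes the 3 hypocotyl points lie above all 6 tissue points, from THI2.1 at a distance of 4.096 to AT3G11930 at 1.86.

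Ribosomal protein genes of the cytosol, which encode the protein part of the translation machinery, were higher in hypocotyl almost throughout. Of 201 loci listed, 113 had a tested probe set of their own, and 101 of these were above both tissues (89.4%, beside 14.5% of all probe sets), with 0 below (beside 13.7%). The list was written from the family's locus names after a few of its members had been seen among the farthest genes, so no test was made of it. Its median difference from the mean of the tissues was 0.81, beside -0.0102 over all probe sets, and the differences from xylem (median 1.02) were larger than those from cork (median 0.63). The distances of the 101 ran from 0.172 to 1.23 with a median of 0.661, a modest shift shared by bright genes: the median hypocotyl level of the 113 was 999.

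The summed intensity of the 113 probe sets was 129217, 129785 and 130311 on the hypocotyl arrays, against 63834, 69545 and 66842 in xylem and 88012, 92749 and 85629 in cork. The hypocotyl sums were the highest of the 9 and the 3 groups did not overlap. AT3G47370, a small-subunit protein gene and the farthest of the family, read 735.3, 902.7 and 798.9 in hypocotyl, against 252.3, 256.8 and 274.5 in xylem and 337, 331.8 and 338.3 in cork (distance 1.23, SE 0.11, adjusted p = 7.62e-11). The large-subunit protein genes AT5G02610 and AT2G37600 followed, at 517 ± 55.5 and 272 ± 19.0 in hypocotyl, 180 ± 49.1 and 86.1 ± 12.9 in xylem, and 218 ± 32.1 and 113 ± 11.16 in cork (distances 1.19 and 1.16). AT5G61170, a small-subunit gene, had a distance of 1.07. The 12 members not called included AT5G27770 (981 ± 88.2 in hypocotyl, 833 ± 78.7 in xylem, 981 ± 116 in cork) and AT4G39200, which was higher in cork (1928) than in hypocotyl (1523). Ribosomal protein genes exist as near-identical copies, so a probe set can take up RNA of a sister gene, and the 113 are not independent.

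The other hypocotyl, xylem and cork arrays of the series gave lower sums for the same probe sets. Against 129800 ± 547 in Col-0 hypocotyl (SD, n = 3), axr1 hypocotyl gave 86540 ± 3990, max4 77820 ± 1180, aba1 66890 ± 1230, abi1 64810 ± 5000 and Ler 58090 ± 1750. The highest value outside Col-0 hypocotyl was 102907, on 1 cork array of the MYB50 knockout whose title marks it as a repeat. The other arrays of that group read 81350 and 87815. The highest array of the other 5 hypocotyl groups read 88947, within the range of the Col-0 cork arrays.

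**Figure D3:**
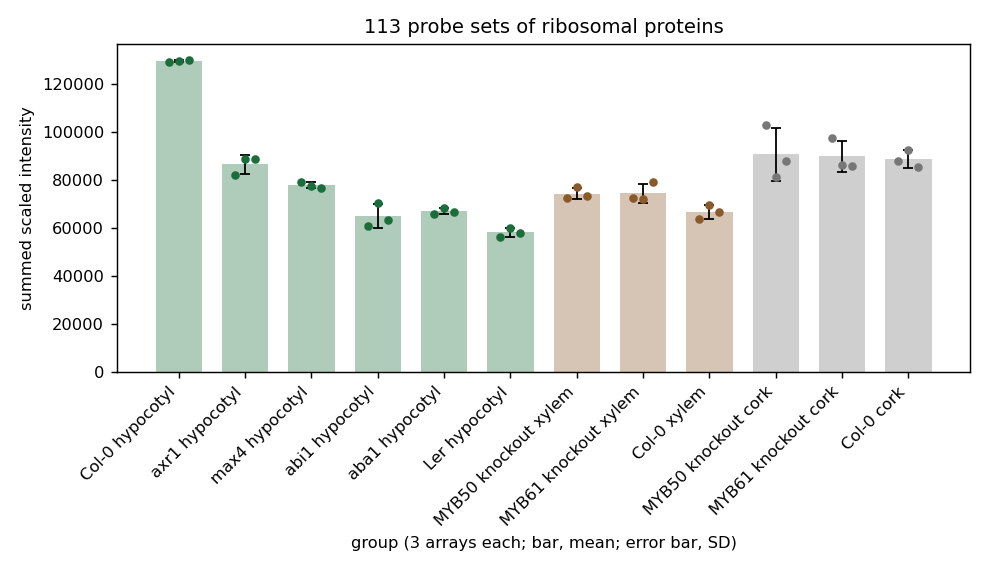
Summed scaled intensity of 113 ribosomal protein probe sets in all 12 groups, as bars (mean of 3 arrays), error bars (SD) and points (arrays). The 3 Col-0 hypocotyl arrays sit at 129217 to 130311, above all other arrays, the highest of which is at 102907.

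The ER body is a store of beta-glucosidases in the endoplasmic reticulum that serves defence in the cabbage family. Its genes were taken from a list also written after values were seen. Of 7 tested members 7 were above both tissues (100%, beside 14.5% of all probe sets) and 0 below (beside 13.7%). PYK10, the main beta-glucosidase of the ER body, read 1934.5, 1975.1 and 1946.5 in hypocotyl, against 41.5, 91.7 and 25.1 in xylem and 822.7, 646.9 and 552.3 in cork. The order was hypocotyl, cork, xylem, with no overlap (distance 1.53, SE 0.22, adjusted p = 1.68e-06). NAI2, which is needed to form the ER body, averaged 469 ± 24.1 in hypocotyl, 24.6 ± 6.64 in xylem and 160 ± 2.82 in cork (distance 1.46). The jacalin-related lectin genes JAL34, JAL22, JAL23 and JAL33, whose proteins join PYK10 in complexes, had distances of 1.64, 1.58, 1.51 and 1.38, with hypocotyl levels of 2.68-fold to 3.45-fold those in cork. NAI1, the transcription factor that switches these genes on, was low, at 32.1 ± 2.77 in hypocotyl, 6.33 ± 4.87 in xylem and 18.9 ± 4.71 in cork (distance 0.47, adjusted p = 0.016), and lost its call in 3 of 17 alternatives. The median difference of the 7 from the mean of the tissues was 2.65.

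PYK10 is also 1 of 12 tested beta-glucosidase genes, 5 of which were above both tissues (41.7%) and 0 below, beside 14.5% and 13.7% of all probe sets. BGLU15 averaged 83.7 ± 4.37 in hypocotyl, 43.3 ± 8.97 in xylem and 33.4 ± 3.69 in cork (distance 0.76). BGLU25 and BGLU44 had distances of 0.63 and 0.46. The count was 3 without Col-0 cork replicate 1.

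The alpha-tubulin gene TUA6 averaged 838 ± 73.3 in hypocotyl, 436 ± 10.7 in xylem and 441 ± 20.4 in cork (distance 0.90, SE 0.10, adjusted p = 6.18e-09), and with the beta-tubulin genes TUB9 and TUB7 made 3 of 7 tubulin and actin genes above both tissues (42.9%). RALFL34, of the RALF family of growth-regulating peptides, read 87.3, 79.7 and 76.4 in hypocotyl, against 20.5, 16.8 and 16.6 in xylem and 29.6, 26.8 and 26 in cork. Hypocotyl was 2.95-fold above cork (distance 1.16), and 3 of 11 tested genes of small peptides and their receptors were above both tissues (27.3%), among them CLE41 (distance 0.77). Of 13 genes of expansins and xyloglucan-modifying enzymes, 3 were above, led by XTH32 (68.4 ± 4.48 in hypocotyl, 17.6 ± 1.14 in xylem, 25.6 ± 8.32 in cork), and 0 below. That was 23.1% above, beside 14.5% of all probe sets, and the count ran from 2 to 5 over the alternatives.

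Of 16 tested TBL genes, a family of wall polysaccharide acetyltransferases, 4 were above both tissues (25%) and 3 below (18.8%), beside 14.5% and 13.7% of all probe sets. TBL36 averaged 380 ± 31.3 in hypocotyl, 138 ± 40.0 in xylem and 117 ± 9.50 in cork (distance 1.39), whereas TBL38 averaged 25 ± 2.98 in hypocotyl, 101 ± 23.4 in xylem and 142 ± 5.72 in cork (distance -1.5). The pectin methylesterase gene PME61 read 151.2, 124.1 and 157 in hypocotyl, against 633, 537.3 and 692.5 in xylem and 1500.3, 1342.4 and 1251.8 in cork. All hypocotyl arrays of PME61 were below all others, 4.31-fold under xylem (distance -1.99, adjusted p = 1.43e-08).

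Markers of the tissues between xylem and cork formed short lists. Of 4 phloem genes 2 were above both tissues (50%, beside 14.5% of all probe sets) and 0 below (beside 13.7%). All 4 were called higher than the mean of the tissues. The 2 above both tissues were CLE41 and SWEET11, a sucrose exporter of phloem loading. SWEET11 averaged 152 ± 7.96 in hypocotyl, 40.7 ± 3.44 in xylem and 109 ± 23.6 in cork (distance 0.44, adjusted p = 0.00447). SWEET11 lost its call without Col-0 cork replicate 1. The phloem genes OPS (33.8 ± 3.63, 21.1 ± 5.01 and 26.8 ± 0.346) and CLE44 were not called, and the summed level of the 4 was 831 to 864 in hypocotyl, 102 to 110 in xylem and 538 to 548 in cork. Of 5 cambium-related genes 0 were outside the range at limma's adjusted p, beside 14.5% of all probe sets above and 13.7% below. Their summed level was 693 to 712 in hypocotyl, 1123 to 1174 in xylem and 501 to 533 in cork. None of the 4 phloem genes was at 0 in any group.

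The xylan genes IRX15 and IRX15-L, which act in the xylan of secondary walls, were called above both tissues, but their arrays overlapped. IRX15 read 79.3, 85.6 and 70.7 in hypocotyl, against 5.6, 18.4 and 94.1 in xylem and 5.6 to 12.4 in cork. Xylem replicate 3 was the highest of the 9 arrays, and the call (distance 1.12, adjusted p = 0.00292) was lost without xylem replicate 1, where the distance was 0.616 and the adjusted p 0.0727. IRX15-L, at 84.6 ± 9.77 in hypocotyl, 55.1 ± 21.0 in xylem and 36.1 ± 5.13 in cork, lost its call in 4 of 18 alternatives. GUT1 and GUT2, the other members tested, were not called.

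Of 16 nuclear photosynthesis genes tested, 0 were called above and 0 below both tissues by limma, beside 14.5% and 13.7% of all probe sets, while 6 were higher and 3 lower than the mean of the tissues, with a summed level of 2235 to 2416 in hypocotyl, 1333 to 1959 in xylem and 2818 to 3288 in cork. Of 69 plastid genome probe sets 4 were above (petA, ndhI, rps18 and atpE) and 0 below (5.80% and 0%), with a median difference of -0.05.

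Of the genes farthest below both tissues, 2 encode nitrate transporters. NRT2.5, a high-affinity nitrate transporter gene known for its rise in nitrogen-starved plants, read 39.3, 35.1 and 40.9 in hypocotyl, against 411.5, 325.5 and 247.8 in xylem and 494.8, 467.1 and 377.7 in cork. The hypocotyl arrays were all below the tissues, 8.54-fold under xylem (distance -2.63, SE 0.18, adjusted p = 2.37e-13). AT3G21670, which encodes the nitrate transporter family member NPF6.4, averaged 97.9 ± 7.41 in hypocotyl, 1011 ± 68.0 in xylem and 502 ± 23.2 in cork (distance -2.19). They were the 2 of 12 tested genes of the nitrogen and amino acid list below both tissues (16.7%, near the 13.7% of all probe sets), and 0 were above.

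Ureide breakdown frees the nitrogen of purines. Of its 3 tested genes 2 were below both tissues (66.7%, beside 13.7% of all probe sets) and 0 above (beside 14.5%). ALN, the gene of allantoinase, read 58.9, 54.2 and 61.6 in hypocotyl, against 384.7, 386.9 and 341.6 in xylem and 357.2, 333.5 and 377.8 in cork. AAH, the gene of allantoate amidohydrolase, which takes the product of allantoinase, read 65.1, 55.8 and 72.2 in hypocotyl, against 389.9, 365.1 and 341.7 in xylem and 363.6, 296.8 and 320.6 in cork. All hypocotyl arrays of both genes were below all tissue arrays, ALN by 6.12-fold (distance -2.33, SE 0.11, adjusted p = 3.98e-17) and AAH by 5.08-fold (distance -2.09, SE 0.18, adjusted p = 5.17e-11). UGLYAH, the gene of a later step, averaged 24.0 ± 6.05 in hypocotyl, 30.6 ± 2.70 in xylem and 34.8 ± 7.54 in cork and was not called. The list of these 3 was written after values were seen.

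Early stress genes, which respond within minutes to touch, wounding and other stimuli, were lower in part. STZ, a zinc finger repressor gene of stress responses, read 116.5, 111 and 128.4 in hypocotyl, against 789.8, 784.5 and 725.6 in xylem and 662.6, 484.7 and 619.8 in cork. The hypocotyl arrays lay below all 6 tissue arrays, 4.97-fold under cork (distance -2.16, SE 0.27, adjusted p = 1.2e-07). The calmodulin-like genes CML23 and CML38, which encode calcium sensors, averaged 34.5 ± 0.757 and 43.2 ± 5.04 in hypocotyl, 210 ± 18.2 and 135 ± 7.67 in xylem, and 121 ± 41.3 and 120 ± 18.5 in cork (distances -1.39 and -1.19). PUB24, a U-box ubiquitin ligase gene of immune signalling, had a distance of -0.89. Of the 13 listed genes tested 4 were below both tissues (30.8%, beside 13.7% of all) and 0 above, in each of 16 settings, with a median difference of -0.26. WRKY53, WRKY22, PUB22, PUB23 and CML37 were among the 9 not called.

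Of the other genes farthest below, AT1G19960 and AT1G22160 were clear cases. AT1G19960, unannotated here, read 31.9, 34.3 and 25.8 in hypocotyl, against 331.1, 317.3 and 472.5 in xylem and 225.3, 346.5 and 301.3 in cork, the largest distance below among the named genes (-2.70, adjusted p = 8.73e-15). AT1G22160, of the FLZ zinc finger family, averaged 273 ± 89.7 in hypocotyl, 1925 ± 176 in xylem and 1528 ± 127 in cork (distance -2.46). AT5G59050 averaged 24.0 ± 6.07 in hypocotyl, 464 ± 47.8 in xylem and 183 ± 33.7 in cork (distance -2.31). AT4G27652 and AT4G27654, neighbours on chromosome 4, averaged 82.0 ± 10.17 and 34.6 ± 4.13 in hypocotyl, 523 ± 29.03 and 206 ± 32.5 in xylem, and 494 ± 49.8 and 296 ± 54.7 in cork. The gene after them, AT4G27657, was below both at a distance of -1.03. PPDK, which encodes pyruvate orthophosphate dikinase, was lower as well, at 30.6 ± 6.18 in hypocotyl, 116 ± 1.82 in xylem and 247 ± 10.8 in cork (distance -1.51), as was HAT2, an auxin-induced homeobox gene (distance -1.11).

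**Figure D4:**
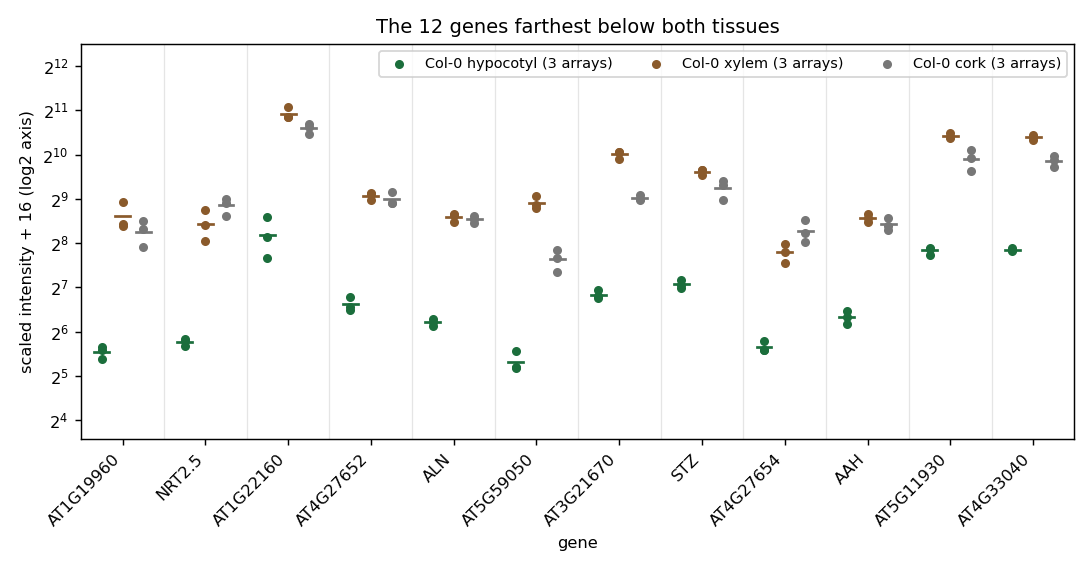
Scaled intensity plus 16 (log2 axis) of the 12 genes farthest below both tissues, with 1 point per array and a bar at the mean of 3 arrays, for Col-0 hypocotyl, xylem and cork from left to right within each gene. In each gene the 3 hypocotyl points lie below all 6 tissue points, from AT1G19960 at a distance of -2.70 to AT4G33040 at -2.01.

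The CC-type glutaredoxins, small redox proteins found in land plants, were called in both directions. On a list of the family written after values were seen, 12 were tested, 5 above both tissues (41.7%) and 3 below (25%), beside 14.5% and 13.7% of all probe sets. AT4G15660 read 135.2, 83.2 and 134.6 in hypocotyl, against 4.5, 3.1 and 0.4 in xylem and 16.7, 16.7 and 19.7 in cork (distance 1.96, adjusted p = 0.000188). AT5G11930 averaged 213 ± 13.7 in hypocotyl, 1350 ± 57.2 in xylem and 937 ± 152 in cork, and AT4G33040 215 ± 6.49, 1326 ± 48.2 and 914 ± 81.5 (distances -2.04 and -2.01). In AT3G62960 hypocotyl stood at 91.5 ± 23.5, xylem at 283 ± 134 and cork at 1839 ± 64.9 (distance -1.40). The genes above were AT4G15660, AT4G15680, AT4G15690, AT4G15700 and AT5G18600, all under 16 in xylem. All but AT4G15660 were dim in hypocotyl too, at 20.4 to 41.3. AT4G15690 had 20.6, 45.2 and 3.8 in hypocotyl beside 1.4 at most in the tissues, with distances from 0.398 to 3.146 across alternatives. It passed the intensity filter through Col-0 hypocotyl (mean 23.2), axr1 hypocotyl (60.9) and MYB50 knockout cork (94.4), with 1.467 at most in the other groups. Its call above was thus favoured by the filter. With a pseudocount of 1 the count above was 3. AT4G15680 and AT4G15690 are neighbours on chromosome 4. Whether probe sets of such relatives take up each other's RNA was not tested, so the 5 may not be independent.

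PMEAMT, a methyltransferase gene of phospholipid synthesis, averaged 343 ± 32.6 in hypocotyl, 99.8 ± 38.8 in xylem and 146 ± 6.25 in cork (distance 1.15). Some lists had shares near those of all probe sets, 14.5% above and 13.7% below. Of 28 UDP-glycosyltransferase genes, 2 were above both tissues (7.14%), led by UGT74D1 (47.9 ± 6.84 in hypocotyl, both tissues under 16), and 5 below (17.9%), led by UGT73B5 (31.2 ± 9.62 in hypocotyl, 83.7 ± 11.4 in xylem, 121 ± 13.9 in cork). UGT74D1 passed the intensity filter only because the Col-0 hypocotyl arrays count in its mean, so its place among those above was favoured by the filter. Of 14 cell cycle and chromatin genes 1 was above (7.14%) and 3 below (21.4%), among them SIM, a cyclin-dependent kinase inhibitor gene (distance -0.63). Of 20 starch and sugar genes 2 were above and 2 below (10% each). All 9 glutathione transferase and all 6 glucosinolate genes tested lay inside the range or were not called by limma.

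Among genes that separate the tissues, hypocotyl lay nearer to cork in the median. On a scale that puts cork at 0 and xylem at 1, the median position over 589 probe sets at least 4-fold apart between the tissues was 0.379 (quartiles 0.117 and 0.67). It was 0.251 for 211 probe sets higher in xylem and 0.468 for 378 higher in cork. Of the 589, 108 lay below 0 and 30 above 1. OCT1, a carnitine transporter family gene, averaged 65.6 ± 6.37 in hypocotyl, 1650 ± 33.6 in xylem and 22.6 ± 4.76 in cork, while AT4G30460, a glycine-rich protein gene, averaged 821 ± 58.0, 1296 ± 206 and 19.2 ± 0.681. AT2G25450, which encodes a glucosinolate side-chain oxygenase, averaged 286 ± 31.9 in hypocotyl, under 16 in xylem and 340 ± 59.2 in cork.

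The same call was made with arrays that share no sample with the 9, though the plants differ in genotype and the arrays in quality measures. The 25S control read 45.6 to 81.3 in Ler hypocotyl, against 1982.2 to 2688.5 in Col-0 hypocotyl. Scanner background was 115.35 to 131.51, against 64.56 to 89.8. MYB61 knockout cork replicate 1 read 186.5 for 25S, its mates 1903.6 and 2389.3, and had the lowest array weight (0.218). The part of these differences in the calls was not tested. Ler hypocotyl was set against xylem and cork of the MYB61 knockout, where 11.4% of all probe sets were above both and 11.6% below both. Of the 2310 probe sets above both in Col-0, 145 were above both here (6.28%) and 474 below both (20.5%). These 145 were 7.95% of the probe sets above in Ler. Of the 2185 below both in Col-0, 274 were below (12.5%) and 462 above (21.1%). The difference between the Col-0 effect and this one was itself called for 8447 probe sets (53.0%).

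The 5 other hypocotyl groups were set against the tissues of both knockouts in 10 such comparisons, chosen after values were seen, of which 5 are described. Over all 10, 2.03% to 20.2% of the 2310 were above both and 3.38% to 40.1% below both. Of the 2185, 1.83% to 27.5% were below both and 2.15% to 50% above both. Each share is read beside that of all probe sets in its own comparison. For the 2310, the 20.2% above (axr1, MYB61 knockout) stood beside 7.79% and the 2.03% (axr1, MYB50 knockout) beside 2.78%. The 40.1% below (Ler, MYB50 knockout) stood beside 16.0% and the 3.38% (axr1, MYB61 knockout) beside 9.47%. The 10 comparisons share hypocotyl and tissue arrays. axr1 hypocotyl against the MYB61 knockout tissues had 7.79% above and 9.47% below both over all probe sets, and of the Col-0 sets 467 of 2310 were above (20.2%) and 600 of 2185 below (27.5%). Of those at least 1 outside the range in Col-0, 112 of 209 were above and 65 of 185 below, the most of any of the 10 comparisons. Over all 10, 4 to 112 of the 209 were above and 2 to 102 below. Of the 185, 3 to 65 were below and 14 to 107 above. Against the MYB50 knockout tissues, 47 of the 2310 were above in axr1 (2.03%, beside 2.78% of all) and 154 below (6.67%, beside 3.46%).

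max4 hypocotyl against the MYB61 knockout tissues had 8.47% above and 10.6% below over all probe sets, with 302 of the 2310 above (13.1%) and 483 of the 2185 below (22.1%). In Ler against the MYB50 knockout tissues 18.9% were above and 16.0% below over all, and of the 2310 above in Col-0, 99 were above and 926 below.

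Ribosomal protein genes, of which 101 of 113 were above both tissues in Col-0, were above in 2 for axr1, 1 for max4 and 1 for Ler against MYB61 knockout tissues, and below in 1 for axr1, 10 for max4 and 59 for Ler. The shares of all probe sets there were 7.79% above and 9.47% below for axr1, 8.47% and 10.6% for max4, and 11.4% and 11.6% for Ler. The 10 below for max4 were near that share. Over all 10 comparisons 0 to 8 of the 113 were above and 1 to 63 below. Of all probe sets, 2.78% to 18.9% were above and 3.46% to 16.0% below. ER body genes, above in 7 of 7 in Col-0, were above in 3 for axr1, 5 for max4 and 1 for Ler against MYB61 knockout tissues. That stands beside 7.79%, 8.47% and 11.4% of all probe sets. Against the MYB50 knockout, whose cork held PYK10 at 1846, ER body genes were above in 1 for axr1 and 0 for each of the other 4 hypocotyls. Of all probe sets, 2.78% were above there for axr1 and 10.9% to 18.9% for the other 4. THI2.1 averaged 1176 ± 56.6 in Col-0 hypocotyl, 829 ± 12.5 in max4 hypocotyl and 78.7 at most in the other 10 groups. STZ averaged 119 ± 8.89 in Col-0 hypocotyl and 715 to 3159 in the other 5 hypocotyl groups.

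**Figure D5:**
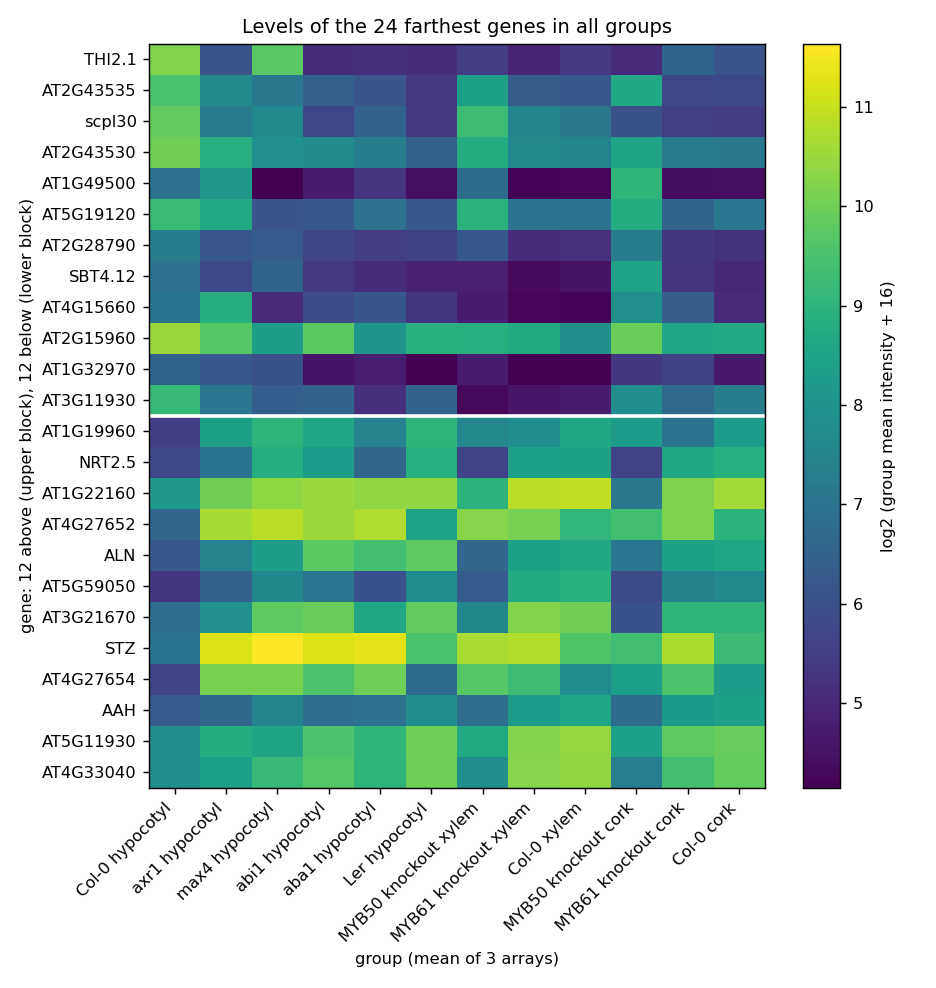
Mean level of the 24 farthest genes in all 12 groups, coloured by log2 of the group mean intensity plus 16, with Col-0 hypocotyl at the left. In the left column the upper 12 genes run from 79.23 (AT1G32970) to 1448 (AT2G15960). The lower 12 run from 24 (AT5G59050) to 273.4 (AT1G22160), so the colours of the blocks overlap. Most other hypocotyl columns differ from the left one, with THI2.1 at 1176 in Col-0 and 829 in max4.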

How the data were processed

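RNA was measured on 36 ATH1 arrays, of which the 9 of Col-0 hypocotyl, xylem and cork are compared here. The authors deposited 1 scaled intensity per probe set and array on a linear scale, from 0 to 7005.3, and each array has a 2% trimmed mean of 100.01. Which program turned probes into these values is not given. Each RNA sample was a pool, per the labels' protocols. The number of arrays limits the precision.

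The 64 control probe sets and those with a mean intensity under the 30th percentile (14.7) were left out, which left 15924 probe sets, and the values were used as log2 of the intensity plus 16. The filter mean took in the Col-0 hypocotyl arrays, which favoured dim genes high there. A damped scale understates the change of dim genes. Group means of all 12 groups were fitted with limma 3.58.1 in R 4.3.3 (empirical Bayes with a trend, two-sided, 24 residual degrees of freedom), with p-values adjusted by the Benjamini-Hochberg method over all 15924. The call rule was also run on simulated data, with most probe sets set midway between xylem and cork and shifts seeded in the others. That setting is unlike these data, so it is no check on the counts given here.

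Genes were named by rule: the 12 farthest above and the 12 farthest below both tissues among probe sets with 1 gene whose groups do not overlap, up to 4 called members of each list (2 where none was called), and the 3 highest and 3 lowest inside the range. The members, lists and tests were chosen with earlier results of these data known. The lists of ribosomal proteins, ER body genes, glutaredoxins, thionins and defensins and ureide genes, 10 comparisons of 5 other hypocotyl groups with the tissues of 2 knockouts, and the difference of effects were added after values were seen; all members of the short added lists could be named. CYN and AT4G21450 are named for lying at the threshold, and a few genes were named after their values were seen (AT5G19110, AT4G27657, AT5G27770, AT4G39200, petA and its fellows). The probe table named 1 gene for 13513 of the 22810 probe sets, so a list result covers its named members alone; neighbours on a chromosome were taken from the TAIR10.1 gene table. Alternatives were pseudocounts of 1 and 64, other filters, quantile normalization, a replicate block, array weights, scanner background, the 9 arrays alone, a linear mean, stricter call rules, and each array left out. Same-numbered arrays of the 3 groups correlated in their deviations at -0.084 to 0.148, over 0.1 in 1 of 9 pairs. Other pairs ran from -0.18 to 0.131, over 0.1 in 1 of 18. No shared effect of the numbers was seen, but these values cannot tell whether same-numbered pools were prepared together.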

Additional observations from a re-analysis of the deposited data

Results flagged for a closer look

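For 22 of the 24 farthest genes, the difference between hypocotyl and the mean of both tissues in Col-0 was unlike that in other plants by the fitted difference of the 2 effects. These genes were chosen by the Col-0 effect, which is 1 side of that difference, so a large value in the Col-0 direction is partly set by the choice. The values are descriptions, with no test. The other plants were Ler hypocotyl with MYB61 knockout xylem and cork, which share no array with Col-0 but differ in genotype and in array quality measures. Values are the Col-0 effect minus the other effect on the log2 scale. Among genes above both tissues they were 5.096 for THI2.1, 4.16 for AT2G43535, 4.63 for scpl30, 3.64 for AT2G43530, 2.43 for AT1G49500, 2.77 for AT5G19120, 1.67 for AT2G28790, 2.06 for SBT4.12, 2.02 for AT4G15660, 2.06 for AT2G15960, 2.74 for AT1G32970 and 2.40 for AT3G11930. Among genes below both they were -4.49 for AT1G19960, -3.26 for NRT2.5, -2.54 for AT1G22160, -3.74 for ALN, -2.68 for AT5G59050, -2.90 for AT3G21670, -0.94 for STZ, -1.80 for AAH, -2.30 for AT5G11930 and -2.41 for AT4G33040. Over all 15924 probe sets, with no choice of genes, the difference was called for 53.0% in limma. Groups of 3 arrays were not searched for outlying arrays.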

How the results depend on the processing

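No direction turned in any alternative. Asking for a distance of at least 1 left 209 probe sets above and 185 below both tissues, fewer by construction. Each other setting kept the counts within 1.5 times: leaving out 1 array gave 7166 to 7938 probe sets different from the mean of the tissues (3484 to 3892 higher, 3630 to 4077 lower), 2022 to 2219 above and 1905 to 2103 below both. With a replicate block, though whether the numbers pair the samples is not known, they were 8033, 2255 and 2100. Taking the mean of the tissues on the linear scale gave 7338 (3312 higher, 4026 lower), with array weights there were 2519 above and 2429 below, and with adjustment over the larger of the 2 p-values 2134 and 2010. The median position between cork and xylem was 0.333 for genes 2-fold apart and 0.373 for genes 8-fold apart. All 24 farthest genes kept their call in each alternative run, and of 105 called genes named, 84 did and 21 lost it in at least 1. The ribosomal protein count above both tissues ran from 96 to 102 over 16 settings, the carboxypeptidase-like and subtilase count from 5 to 8, and the ER body count from 6 to 7. Dim genes limit the precision: both tissues were under 16 for 88 of the probe sets above both, and hypocotyl for 99 of those below.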

Other observations

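Some genes outside the Col-0 range had levels in MYB50 knockout tissues near those of Col-0 hypocotyl and others did not, and the genes given here were picked after their values were seen, with no test. NRT2.5 averaged 38.4 ± 3.00 in Col-0 hypocotyl, against 34.6 ± 12.4 in MYB50 knockout xylem, 35.8 in MYB50 knockout cork, 328 ± 81.9 in Col-0 xylem and 447 ± 61.2 in Col-0 cork. AT4G33040, the glutaredoxin gene, averaged 215 ± 6.49 in Col-0 hypocotyl, 213 in MYB50 knockout xylem and 149 in MYB50 knockout cork, against 1326 ± 48.2 in Col-0 xylem and 914 ± 81.5 in Col-0 cork. PYK10 averaged 1952 ± 20.9 in Col-0 hypocotyl but 82.7 in MYB50 knockout xylem and 1846 in MYB50 knockout cork, against 52.8 in Col-0 xylem and 674 ± 137 in Col-0 cork. ALN averaged 58.2 ± 3.75 in Col-0 hypocotyl, 82.4 in MYB50 knockout xylem and 121 in MYB50 knockout cork, against 371 in Col-0 xylem and 356 ± 22.2 in Col-0 cork. THI2.1, at 1176 in Col-0 hypocotyl, was at 29.1 in MYB50 knockout xylem and 17.2 in MYB50 knockout cork. STZ, at 119 in Col-0 hypocotyl, was at 1641 and 634 in the same knockout tissues, AT1G19960, at 30.7, was at 181.5 and 295.7, and AT4G27652, at 82.0, was at 1222 and 647.

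The summed intensity of the ribosomal protein genes was 129800 ± 547 in Col-0 hypocotyl, 74280 ± 2390 in MYB50 knockout xylem and 90690 ± 11100 in MYB50 knockout cork (SD, n = 3 each). Over all probe sets Col-0 hypocotyl correlated with MYB50 knockout cork at 0.931, with axr1 hypocotyl at 0.929, with Col-0 cork at 0.926, with Col-0 xylem at 0.883 and with Ler hypocotyl at 0.866, as group means over 15924 probe sets that share their abundant genes.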
